A study of Homo sapiens with 9 samples.

Results

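EGFR, the epidermal growth factor (EGF) receptor, was followed in SK-N-AS cells together with 8 genes that feed or restrain it. The 9 genes were the ligands HBEGF, AREG, EREG and TGFA, the receptors EGFR, ERBB2 and ERBB3, and the inhibitors ERRFI1 and LRIG1. They were chosen by name, with earlier results of these data known, and all of their probe sets on the array were taken. The annotation table named 31 of the 54675 probe sets for 8 of the 9 genes. AREG, which encodes amphiregulin, was not analysed here, since that table gives no probe set to it. Of the 31 probe sets, 17 were bright enough for a test, with a mean log2 signal above 4.196 (a signal of 18.3), and they covered 7 genes.

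SK-N-AS is an established human neuroblastoma line. The arrays form 3 series of cells: cells given the RE-EX1 expression construct for full-length NRSF, cells given the HZ4 construct for a truncated NRSF, and untreated cells. The REST gene encodes NRSF, which represses neuronal genes. Each series has 1 array at 0, 24 and 48 h, 9 arrays in all, and the 0 h array of a construct series is labelled as its baseline. No age, passage or clone is given in the labels, and no treatment other than the constructs is named for any group. The series text speaks of triplicates and batches, but no replicate or batch number ties to an array.

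Ligands of the EGF family are made as membrane-bound precursors and are cut free by metalloproteases of the ADAM family. A bound ligand pairs EGFR with itself or with ERBB2 or ERBB3, and the pair signals through RAS to the kinase ERK and through PI3K to AKT. ERK signalling is known to raise the transcripts of several of the ligands and also those of inhibitors. The transcripts of both arms of a feedback loop can thus be read in RNA, but protein and receptor activity were not measured here. ERRFI1, also called MIG6, binds the EGFR kinase domain and blocks it, and LRIG1 is a membrane protein that promotes the degradation of ERBB receptors.

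All arrays had been scaled to 1 target, and array medians lay between 30.87 and 42.67. Signals at or below 8.266, the floor, were given no order, and they made up 21.9% to 26.9% of an array. The truncated NRSF 24 h array stood slightly apart, with a median correlation across genes of 0.909 to the rest, against 0.921 to 0.931 for the other 8 (genes are not independent replicates). There the dimmest 20% of genes lay a median of 0.52 log2 over their own average, against -0.06 to 0.32 elsewhere. Of 8 sympathoadrenal neuroblastoma markers with a probe set, 6 passed the filter, among them GATA3 (signals 1346 to 1912) and ISL1. TH and DBH, enzymes of catecholamine synthesis, did not pass. All 8 mesenchymal neuroblastoma markers passed, with VIM at 9354 to 14400. Of the epithelial markers 2 of 9 passed, CLDN4 and ELF3, and of the endothelial markers 1 of 4 passed, PECAM1. Summed epithelial marker signals were 187 to 273 at 0 h, 190.0 to 295 at 24 h and 126 to 281 at 48 h, so these ranges overlapped. The 4 fibroblast markers summed to 6237 to 7422 at 0 h, 3583 to 4495 at 24 h and 5258 to 5507 at 48 h, a range that was lowest at 24 h. Of the macrophage and blood markers 2 of 5 passed, PTPRC and HBB, the latter on a probe set open to cross-hybridization. The summed signals of this list were 114 to 173 at 0 h, 155 to 245 at 24 h and 223 to 269 at 48 h, with no overlap between 0 and 48 h. PTPRC rose by 1.05 ± 0.30 log2 at 48 h (limma adjusted p = 0.042), while CD14, CSF1R and LYZ failed the filter. The part of the fibroblast and blood markers in the results below was not tested.

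At 24 h over 0 h, 4 of the 7 tested genes rose (HBEGF, EREG, ERRFI1 and LRIG1) and none fell. The series were the repeats in this limma fit, which held series and time and adjusted p-values over all 26480 probe sets. Over all 13792 genes tested, 7.65% rose and 7.68% fell in the same comparison. These 7 genes were chosen with earlier results of these data known, so shares of all genes are for reading and are no test. At 48 h over 0 h, HBEGF, EREG and ERRFI1 rose and none fell, where 4.05% of all genes rose and 3.47% fell. At 48 h over 24 h, HBEGF and LRIG1 fell and none rose, where 1.67% of all genes fell and 1.47% rose. The median log2 change of the 7 genes was 1.38, 0.60 and -0.46 in these 3 comparisons, against -0.03, -0.01 and 0.01 over all genes tested. The 48 h median is the change of ERBB2, 0.60 ± 0.64, which was not called. Without the full-length NRSF 0 h array, below the floor for ERBB2 and TGFA, their 48 h changes were -0.31 and -0.24. Those of HBEGF, EREG and ERRFI1 were then 0.76, 2.41 and 1.07. By probe sets, 6 of 17 rose at 24 h and 4 at 48 h, and 3 fell between 24 and 48 h. Over all 26480 probe sets, 1752 rose at 24 h and 863 at 48 h. Between 24 and 48 h 697 of them were called, with 310 of these up. These are bulk RNA measurements, in which fewer cells of a kind and less RNA per cell cannot be told apart. Without the truncated NRSF 24 h array, 3 genes rose at 24 h and 1 fell between 24 and 48 h, with LRIG1 lost from both counts. With no filter, with a gene's probe sets averaged or with no variance trend, HBEGF and ERRFI1 were the 2 genes called at 24 h, and no gene was called between 24 and 48 h. At 48 h ERRFI1 alone was called with no filter or averaged probe sets, and no gene with no variance trend (ERRFI1 had a limma adjusted p of 0.11).

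The bases upstream of the 4 genes that rose are shown because each of them was called up at 24 h. Each sequence is the 250 bases before a RefSeq transcription start (GRCh38.p14), printed 5′ to 3′ on the gene's strand. Capitals mark a GC box (GGGCGG) or a TATA box (TATAAA) read on either strand. The windows are chr5:140346604-140346853 on the minus strand for HBEGF, chr4:74364895-74365144 on the plus strand for EREG, chr1:8026310-8026559 on the minus strand for ERRFI1 and chr3:66501122-66501371 on the minus strand for the first of 4 LRIG1 starts.
HBEGF: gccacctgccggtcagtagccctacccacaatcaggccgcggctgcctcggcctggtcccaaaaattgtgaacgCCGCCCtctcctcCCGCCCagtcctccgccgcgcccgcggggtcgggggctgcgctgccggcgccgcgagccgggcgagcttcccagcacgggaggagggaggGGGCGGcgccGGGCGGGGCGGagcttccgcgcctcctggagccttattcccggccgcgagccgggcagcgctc
EREG: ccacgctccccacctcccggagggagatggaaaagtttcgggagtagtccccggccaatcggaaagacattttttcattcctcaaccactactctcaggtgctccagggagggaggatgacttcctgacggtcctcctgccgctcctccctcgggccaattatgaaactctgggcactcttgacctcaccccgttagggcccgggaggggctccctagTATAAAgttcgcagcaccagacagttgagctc
ERRFI1: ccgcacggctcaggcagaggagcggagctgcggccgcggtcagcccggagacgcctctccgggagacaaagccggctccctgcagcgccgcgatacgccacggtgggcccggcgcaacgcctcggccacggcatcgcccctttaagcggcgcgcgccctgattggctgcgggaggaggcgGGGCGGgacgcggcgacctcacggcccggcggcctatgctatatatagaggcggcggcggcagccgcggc
LRIG1: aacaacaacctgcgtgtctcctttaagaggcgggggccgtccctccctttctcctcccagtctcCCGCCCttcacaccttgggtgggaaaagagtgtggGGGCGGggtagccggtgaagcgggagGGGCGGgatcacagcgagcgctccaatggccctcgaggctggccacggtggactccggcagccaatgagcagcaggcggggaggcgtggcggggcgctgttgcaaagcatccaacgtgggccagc

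The HBEGF window held 5 GC boxes, 2 of which share a base, the LRIG1 window held 3 and the ERRFI1 window 1, at 70 to 65 bases before the start. EREG had no GC box in its window but a TATA box (TATAAA) 32 to 27 bases before the start. Other forms of the TATA box were not searched, so the stretch tatatata near the end of the ERRFI1 window is unmarked. A GC box was found in 42.6% and a TATA box in 10.7% of all 35116 promoter windows of this length. The AP-1 motif (TGANTCA), the CRE (TGACGTCA) and the CArG box of serum response factor were also searched on both strands, and none of these was found in the 4 windows shown. They occur in 6.57%, 1.65% and 1.16% of all windows. Over the 13 windows of the 8 genes with one, 3 held an AP-1 motif (an EGFR, an ERBB2 and an LRIG1 window), 1 a CRE (AREG) and none a CArG box. Other elements, such as the sites of ETS factors, were not searched. A match is a description of letters and not a bound site.

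HBEGF (chromosome 5, 140332843 to 140346603) encodes heparin-binding EGF-like growth factor. Its brightest probe set, 203821_at, read 181, 735 and 247 at 0, 24 and 48 h on the full-length NRSF arrays. It read 171, 832 and 348 on the truncated NRSF arrays and 217, 761 and 331 on the untreated arrays. All 3 arrays at 24 h were above all other arrays, the 48 h arrays lay between these and the 0 h arrays, and no time point overlapped another. The rise at 24 h was 2.04 ± 0.19 log2 (standard error, n = 3 series), or 4.11-fold, with a limma adjusted p of 1.1e-06. At 48 h HBEGF was 0.69 ± 0.19 log2 above 0 h (limma adjusted p = 0.032), and it fell by 1.34 ± 0.19 between 24 and 48 h (adjusted p = 0.00046). The 48 h over 0 h call was lost when any series was left out, with log2 changes of 0.81 without full-length NRSF (adjusted p = 0.095), 0.53 without truncated NRSF (0.22) and 0.74 without untreated cells (0.12). It was also lost without the full-length NRSF 0 h array (0.76, adjusted p = 0.082).

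A second bright HBEGF probe set, 38037_at, gave the same order of times. It read 110.3, 493 and 194 on the full-length NRSF arrays, 58.8, 501 and 203 on the truncated NRSF arrays, and 105, 447 and 241 on the untreated arrays. Its fitted changes were 2.45 ± 0.24 log2 at 24 h (limma adjusted p = 3e-06) and 1.27 ± 0.24 at 48 h (0.0043), and it fell by 1.18 ± 0.24 between 24 and 48 h (0.013). The other 2 HBEGF probe sets were dim (222076_at at 3.07 to 35.8, 244857_at at 4.46 to 21.9) and were not tested.

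EREG (chromosome 4, 74365145 to 74388749) encodes epiregulin, a ligand of EGFR and ERBB4. Its brightest probe set, 205767_at, read 76.3, 151 and 321 at 0, 24 and 48 h on the full-length NRSF arrays. It read 41.4, 170 and 409 on the truncated NRSF arrays and 80.9, 197 and 212 on the untreated arrays. All arrays at 24 h were above all arrays at 0 h and below all arrays at 48 h, an order of times that differs from that of HBEGF. In untreated cells the step between 24 and 48 h was small, 0.10 log2, against 1.09 with full-length and 1.27 with truncated NRSF.

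The EREG rise was 1.43 ± 0.31 log2 at 24 h (2.70-fold, limma adjusted p = 0.0049) and 2.25 ± 0.31 at 48 h (4.77-fold, adjusted p = 0.00027). The change between 24 and 48 h, 0.82 ± 0.31, did not pass (limma adjusted p = 0.19). The second EREG probe set, 1569583_at, was dim and disagreed between series. It read 38.9, 6.99 and 8.30 on the full-length NRSF arrays, 3.84, 35.3 and 29.3 on the truncated NRSF arrays, and 12.0, 42.0 and 25.3 on the untreated arrays. Its fitted change at 24 h was 0.56 ± 0.93 (limma adjusted p = 0.77). When the log2 values of all probe sets of a gene were averaged, the EREG call was lost, at 1.00 log2 (adjusted p = 0.27) at 24 h and 1.24 (0.22) at 48 h.

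TGFA (chromosome 2, 70447284 to 70553826) encodes transforming growth factor alpha, a ligand of EGFR. Its brightest probe set, 205016_at, read 6.73, 61.2 and 44.9 at 0, 24 and 48 h on the full-length NRSF arrays. It read 48.2, 70.6 and 51.3 on the truncated NRSF arrays and 40.8, 85.5 and 23.4 on the untreated arrays. The full-length NRSF 0 h array was below the floor and stood far under the other 0 h arrays. All 24 h arrays were above all 0 h arrays, but the fitted change of 1.50 ± 0.60 log2 did not pass (limma adjusted p = 0.12). Without that 0 h array it was 0.69 (adjusted p = 0.53). The 48 h arrays overlapped the 0 h arrays, with a change of 0.58 ± 0.60 (limma adjusted p = 0.65). Of the other TGFA probe sets, 211258_s_at read 11.7 to 48.4 with no call at any time, and 205015_s_at was below the floor on all 9 arrays.

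**Figure D1:**
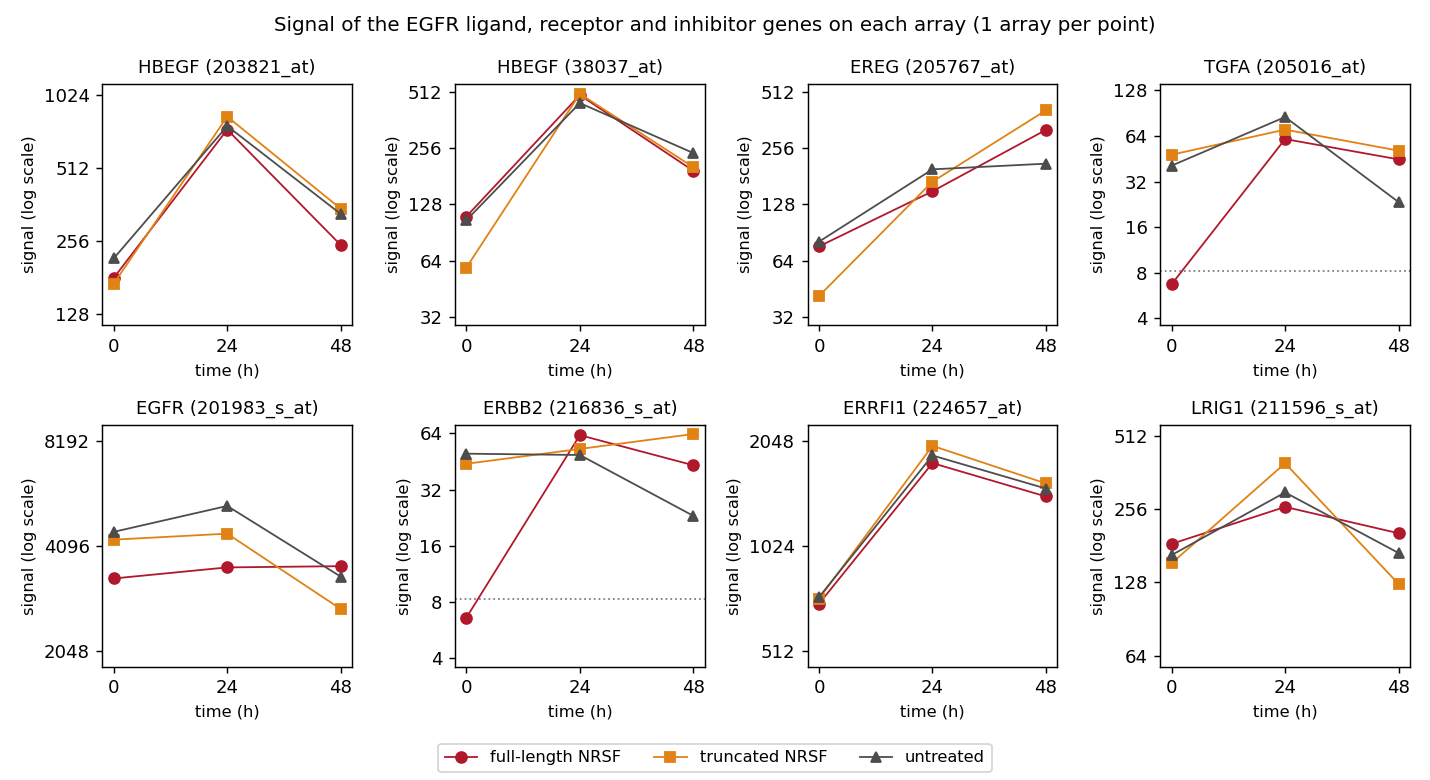
Signal of the leading probe set of each of the 7 tested genes, and of a second HBEGF probe set, on a log axis against time in h; each point is 1 array, lines join the arrays of a series, and the dotted line marks the floor of 8.266. HBEGF and ERRFI1 are highest at 24 h in all 3 series, EREG is highest at 48 h, and the full-length NRSF 0 h array is below the floor for TGFA and ERBB2.

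EGFR (chromosome 7, 55019017 to 55211628) was bright on every array. Its leading probe set, 201983_s_at, read 3300, 3550 and 3579 at 0, 24 and 48 h on the full-length NRSF arrays. It read 4263, 4435 and 2698 on the truncated NRSF arrays and 4488, 5325 and 3341 on the untreated arrays. The ranges of the 3 times overlapped. The fitted change was 0.14 ± 0.16 log2 at 24 h (95% interval -0.20 to 0.47, limma adjusted p = 0.66) and -0.32 ± 0.16 at 48 h (-0.66 to 0.01, adjusted p = 0.27). Between 24 and 48 h it was -0.46 ± 0.16 (adjusted p = 0.15).

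Among the 7 tested EGFR probe sets, 201984_s_at was called in 1 comparison. It read 300.0, 561 and 460 on the full-length NRSF arrays, 434, 564 and 423 on the truncated NRSF arrays, and 409, 542 and 457 on the untreated arrays. All 24 h arrays were above all 0 h arrays, by 0.56 ± 0.18 log2 in the fit (limma adjusted p = 0.041), and the change at 48 h was 0.25 ± 0.18 (0.47). The bright probe set 224999_at read 1965, 1855 and 1838 on the full-length NRSF arrays, 1519, 2154 and 1588 on the truncated NRSF arrays, and 1733, 1820 and 1432 on the untreated arrays. Its changes were 0.16 ± 0.15 and -0.10 ± 0.15 log2 at 24 and 48 h (limma adjusted p = 0.54 and 0.76), so the 3 bright EGFR probe sets differ in whether 24 h is called. The other 4 tested EGFR probe sets, 3 of them with an identifier that marks possible cross-hybridization, read 2.82 to 207 and were not called in any time comparison. The 2 untested ones read 2.16 to 36.8.

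ERBB2 (chromosome 17, 39688094 to 39728658) encodes the receptor that binds no known ligand itself and pairs with the others. Its leading probe set, 216836_s_at, read 6.59, 62.6 and 43.2 at 0, 24 and 48 h on the full-length NRSF arrays. It read 44.0, 52.8 and 63.4 on the truncated NRSF arrays and 49.8, 49.0 and 23.1 on the untreated arrays. As for TGFA, the full-length NRSF 0 h array was below the floor, and the other 0 h arrays lay within the range of the later ones. The fitted change at 24 h was 1.05 ± 0.64 log2 (95% interval -0.29 to 2.40, limma adjusted p = 0.33), and it was 0.14 (adjusted p = 0.93) without that array. At 48 h it was 0.60 ± 0.64 (limma adjusted p = 0.66). The other 2 ERBB2 probe sets read 1.14 to 29.4.

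ERBB3 (chromosome 12, 56080108 to 56103505) encodes the receptor whose kinase is nearly inactive and which signals mainly to PI3K. All 5 of its probe sets failed the filter, with signals of 1.76 to 44.0 over the 9 arrays. The brightest on average, 1563253_s_at, read 27.2, 30.5 and 4.33 on the full-length NRSF arrays, 25.3, 4.54 and 9.10 on the truncated NRSF arrays, and 21.6, 1.76 and 40.3 on the untreated arrays. No time or series stood apart in these values, and at least 3 of the 9 arrays were at or below the floor for each probe set. Changes of ERBB3 were not tested.

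ERRFI1 (chromosome 1, 8011727 to 8026309) was read by a single probe set, 224657_at, and its 3 series ran nearly on top of each other. It read 698, 1766 and 1417 at 0, 24 and 48 h on the full-length NRSF arrays. It read 722, 1979 and 1544 on the truncated NRSF arrays and 729, 1857 and 1493 on the untreated arrays. No time point overlapped another, and 24 h was highest in each series. The rise was 1.38 ± 0.14 log2 at 24 h (2.60-fold, limma adjusted p = 2.9e-06) and 1.05 ± 0.14 at 48 h (2.07-fold, adjusted p = 0.00016). The change between 24 and 48 h was -0.33 ± 0.14 and did not pass (limma adjusted p = 0.23), although all 3 series were lower at 48 h than at 24 h. The ERRFI1 transcript thus stood above its 0 h level at 48 h by 1.02 log2 with full-length NRSF, 1.10 with truncated NRSF and 1.03 without a construct.

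LRIG1 (chromosome 3, 66378797 to 66501121) was called at 24 h over 0 h and not at 48 h over 0 h. Its leading probe set, 211596_s_at, read 184, 261 and 204 at 0, 24 and 48 h on the full-length NRSF arrays. It read 153, 395 and 126 on the truncated NRSF arrays and 166, 299.8 and 169 on the untreated arrays. All 24 h arrays were above all other arrays, and the 48 h arrays overlapped those at 0 h. The change was 0.91 ± 0.25 log2 at 24 h (1.88-fold, limma adjusted p = 0.019) and -0.04 ± 0.25 at 48 h (0.96), and LRIG1 fell by 0.94 ± 0.25 between 24 and 48 h (0.047).

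The LRIG1 calls rested on single arrays more than those of HBEGF and ERRFI1 at 24 h. Without the truncated NRSF 24 h array the rise at 24 h was 0.62 log2 (limma adjusted p = 0.18) and the change between 24 and 48 h was -0.66 (0.31). The 24 h call was also lost without the truncated series (0.68, adjusted p = 0.14), without the untreated series (0.94, 0.073) and without the full-length NRSF 0 h array (0.96, 0.057). The 48 h over 24 h call was lost when any series or that 0 h array was left out, with log2 changes of -1.24 to -0.59 and limma adjusted p-values of 0.065 to 0.39. With the log2 values of its probe sets averaged, LRIG1 differed by 0.16 at 24 h (limma adjusted p = 0.87) and by -0.04 between 24 and 48 h (0.98). A second tested LRIG1 probe set, 238339_x_at, whose identifier marks possible cross-hybridization, read 1.38 to 56.8 and was not called. The other 2 read 1.03 to 32.6.

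**Figure D2:**
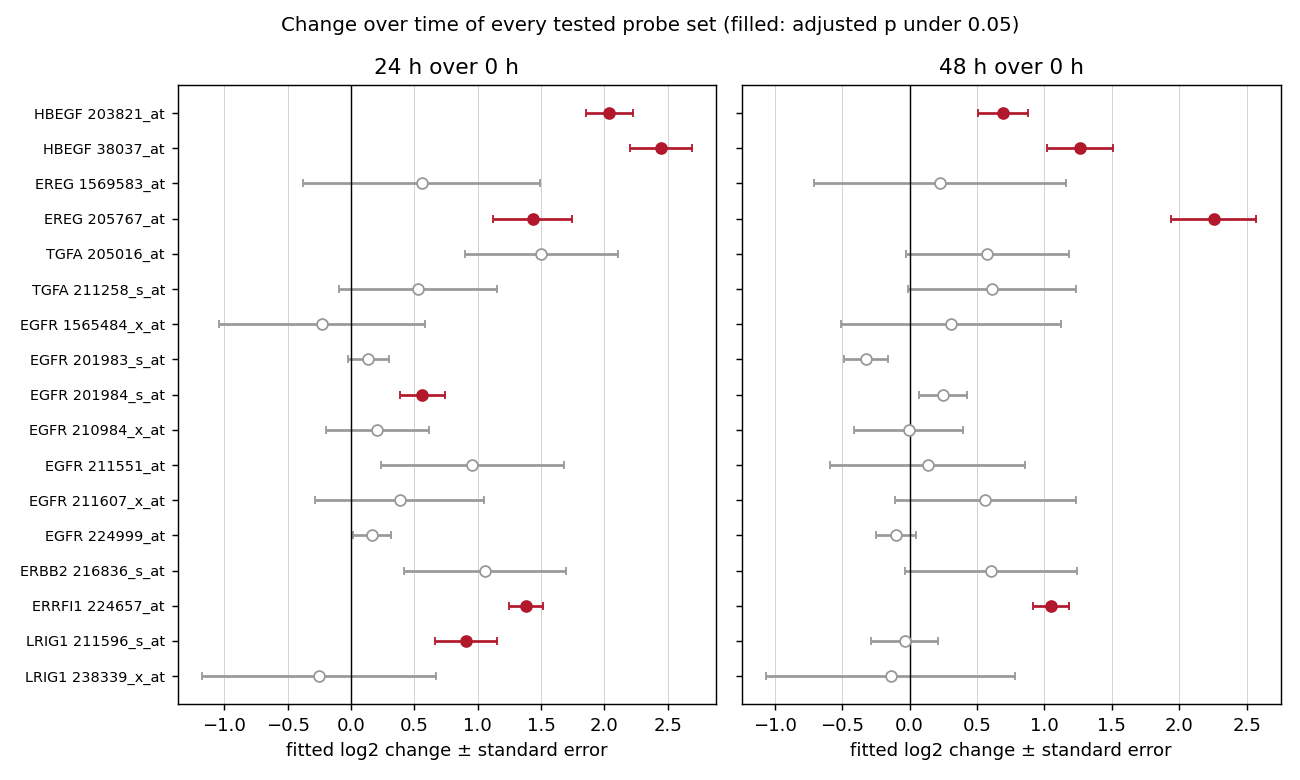
Fitted log2 change with its standard error for each of the 17 tested probe sets, at 24 h over 0 h (left) and 48 h over 0 h (right); filled points have an adjusted p under 0.05. Both HBEGF probe sets, EREG 205767_at and ERRFI1 are called at both times, EGFR 201984_s_at and LRIG1 211596_s_at at 24 h alone, and dim probe sets have the widest errors.

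The constructs were compared with untreated cells by the change from the series' own 0 h array. The limma fit for this took 24 and 48 h as repeated readings of a construct effect. None of the 7 genes was called for full-length NRSF over untreated cells, where 0.0% of all genes were called. None was called for truncated NRSF over untreated cells (0.00725% of all genes) or for full-length over truncated NRSF (0.0%). Under an unadjusted p of 0.05 lay 2 genes for full-length NRSF (TGFA and ERBB2), 1 for truncated NRSF (EREG) and 0 between constructs. Of all 13792 genes tested, 541, 1020 and 826 lay under it in the same comparisons. The lowest limma adjusted p-values of the 7 genes were 1, 0.745 and 0.88.

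On the leading probe sets of ERRFI1, HBEGF, LRIG1 and EGFR the fitted construct effects over untreated cells lay between -0.21 and 0.45 log2. ERRFI1 differed by -0.01 log2 for full-length NRSF over untreated cells (95% interval -0.64 to 0.62) and by 0.08 for truncated NRSF (-0.55 to 0.71). HBEGF differed by 0.03 (-0.80 to 0.86) and 0.45 (-0.38 to 1.27) for the same pairs. Its second bright probe set, 38037_at, differed by -0.15 (-1.17 to 0.86) and 0.80 (-0.22 to 1.81). LRIG1 differed by -0.12 (-1.26 to 1.03) and 0.10 (-1.05 to 1.24). EGFR on its leading probe set differed by 0.20 (-0.51 to 0.91) and -0.21 (-0.93 to 0.50). Each of these intervals includes 0, and those of ERRFI1 are the narrowest. Other probe sets varied more. For full-length NRSF over untreated cells EGFR 210984_x_at differed by 1.88 (0.25 to 3.5) and 211607_x_at by 2.92 (0.46 to 5.38). LRIG1 238339_x_at differed by -2.95 (-7.0 to 1.1), and the bright EGFR 224999_at by 0.01 (-0.63 to 0.66). None of these was called.

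For EREG the series lay further apart at 48 h than at 24 h. Net of untreated cells its change at 24 and 48 h was -0.31 and 0.69 log2 with full-length NRSF, and 0.75 and 1.92 with truncated NRSF. The fitted effect was 0.19 ± 0.61 for full-length NRSF (limma adjusted p = 1) and 1.33 ± 0.61 for truncated NRSF (95% interval 0.05 to 2.61, adjusted p = 0.75). Between full-length and truncated NRSF it was -1.14 ± 0.61 (-2.42 to 0.14, limma adjusted p = 0.90). The truncated NRSF 0 h array had the lowest EREG signal of the 0 h arrays, 41.4, against 76.3 and 80.9 on the others.

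TGFA and ERBB2 gave the largest fitted effects of full-length NRSF over untreated cells among the leading probe sets, 2.53 ± 1.17 and 3.22 ± 1.20 log2 (limma adjusted p = 1 for both). Both rest on the full-length NRSF 0 h array, which was below the floor for both genes, and with it left out this effect has no value. Their size depends on the floor: with the floor at the 40th percentile the effects were 1.08 for TGFA and 1.77 for ERBB2, and with log2(signal + 16) and no floor 1.44 and 1.98. At 24 h the signals themselves were 61.2 and 70.6 on the construct arrays against 85.5 on the untreated array for TGFA, and 62.6 and 52.8 against 49.0 for ERBB2. At 48 h they were 44.9 and 51.3 against 23.4 for TGFA, and 43.2 and 63.4 against 23.1 for ERBB2, so the untreated array was lowest for both genes at that time.

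**Figure D3:**
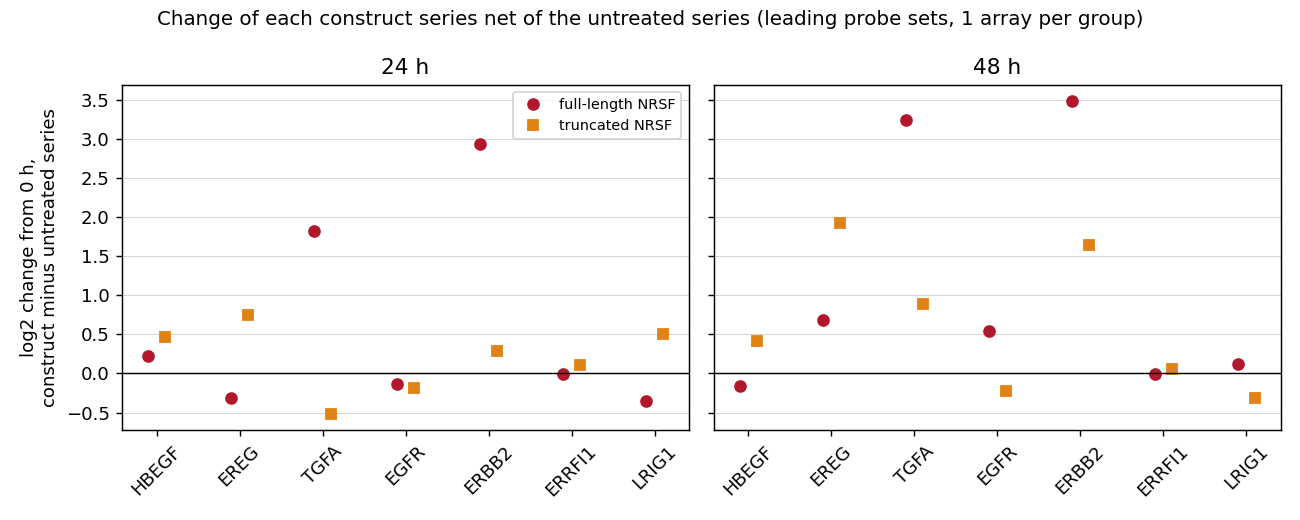
Log2 change from 0 h of each construct series minus that of the untreated series, at 24 h (left) and 48 h (right), for the leading probe sets of the 7 tested genes; each point comes from 4 arrays, and there is no replicate. ERRFI1 lies within 0.11 of 0 at both times, and the points above 1.7 are full-length NRSF in TGFA and ERBB2, whose 0 h array was below the floor, and truncated NRSF in EREG at 48 h.

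Other genes of the pathway were counted in 6 lists by the same time fit. The lists, too, were chosen with earlier results of these data known. Genes named from these lists are the 3 with the largest absolute change at 24 h. Further called genes, and ADAM17 for its role, were chosen after their values were seen. Shares of all genes called, for reading the counts, are 7.65% up and 7.68% down at 24 h, 4.05% up and 3.47% down at 48 h, and 1.47% up and 1.67% down between 24 and 48 h. Of 8 other EGF family ligands and ERBB4, 3 were tested and 1 rose at both 24 and 48 h. This was NRG1, which encodes neuregulin, a ligand of ERBB3 and ERBB4. NRG1 on 206343_s_at read 232, 934 and 730.5 at 0, 24 and 48 h on the full-length NRSF arrays, 203, 616 and 830.0 on the truncated NRSF arrays, and 212, 683 and 532 on the untreated arrays. All arrays at 24 and 48 h were above all 0 h arrays, by 1.77 ± 0.19 and 1.67 ± 0.19 log2 (limma adjusted p = 5.1e-06 and 3.7e-05). The other 4 tested NRG1 probe sets were not called. EGF differed by -1.08 ± 0.73 at 24 h (limma adjusted p = 0.39) and NRG2 by -0.17 ± 0.36 (0.83).

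Ligand release showed few calls, and 0 genes up of 10 is near the share of all genes. For the counts down, the shares of all genes are 7.68% at 24 h, 3.47% at 48 h and 1.67% between 24 and 48 h. Of 10 tested genes of ligand release, 0 rose and 2 fell at 24 h (median -0.26), 0 rose and 2 fell at 48 h (median -0.38), and 1, ADAM19, fell between 24 and 48 h. ADAM12 differed by -0.77 ± 0.19 at 24 h (limma adjusted p = 0.012) and ADAM10 by -0.46 ± 0.14 (0.038). ADAM17, the main protease for HBEGF, EREG and TGFA precursors, differed by 0.00 ± 0.16 at 24 h and -0.19 ± 0.16 at 48 h (limma adjusted p = 1 and 0.57). ADAM15 at -0.97 ± 0.44 (0.17) and CD9, a tetraspanin that associates with the HBEGF precursor, at -0.51 ± 0.18 (0.072) were not called in limma at 24 h.

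In the lists of signalling and of receptor turnover the counts at 24 h were near the shares of all genes. Of 16 tested genes that carry the signal to ERK, PI3K and STAT, 2 rose and 1 fell at 24 h (median -0.32), and 1 rose and 2 fell at 48 h (median -0.14). SOS1, the exchange factor that loads RAS, rose by 0.71 ± 0.20 log2 (limma adjusted p = 0.023) and the adaptor GRB2 by 0.53 ± 0.16 (0.038) at 24 h. The kinase AKT1 fell by 0.89 ± 0.18 (limma adjusted p = 0.0032), and the adaptor GAB1 at -0.63 ± 0.28 was not called (0.15). At 48 h GRB2 was up, AKT1 and the PI3K subunit PIK3R1 were down, and between 24 and 48 h MAPK3, read by a probe set open to cross-hybridization, was up. Of 19 tested genes of receptor turnover and other inhibitors, 1 rose and 1 fell at 24 h (median -0.10), and 2 rose and 2 fell at 48 h (median 0.16). SOCS5, whose product is known to lower EGFR, rose by 0.78 ± 0.15 and SOCS3 fell by 1.20 ± 0.31 at 24 h (limma adjusted p = 0.0017 and 0.014), while RNF126 at -0.70 ± 0.27 was not called (0.097). At 48 h SOCS5 and SH3KBP1 were up and SOCS3 and the ubiquitin ligase gene CBLB were down, and SH3KBP1 was up between 24 and 48 h.

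Downstream of ERK, 4 of 11 feedback genes rose and 1 fell at 24 h (median 0.42). The phosphatase genes DUSP1 and DUSP5 rose by 2.75 ± 0.19 and 2.47 ± 0.18 log2 (limma adjusted p = 4.1e-08 and 5.8e-08), and SPRY4 and SPRED1, whose products restrain the step to RAF, rose by 0.97 ± 0.16 and 0.70 ± 0.21 (0.00043 and 0.035). SPRY1 fell by 1.01 ± 0.15 (limma adjusted p = 0.00018), and DUSP2 at 1.30 ± 0.65 was not called (0.22). At 48 h 2 of the 11 were up (DUSP1 and DUSP5) and 3 were down (DUSP6, SPRY1 and SPRY2), with a median of -0.04. Between 24 and 48 h, 3 fell (DUSP5, SPRY2 and SPRY4) and 0 rose.

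Of 15 tested ERK target genes, 9 rose and 1, ETV1, fell at 24 h (median 0.90). The transcription factor genes EGR3, EGR1 and FOS changed most, by 2.81 ± 0.53, 2.24 ± 0.29 and 2.17 ± 0.31 log2 (limma adjusted p = 0.0015, 5.3e-05 and 0.00016). At 48 h 2 of the 15 were up (IER3, and MCL1 on a probe set open to cross-hybridization) and 0 were down, with a median of 0.09. Between 24 and 48 h, 6 fell and 0 rose (median -0.66), among them EGR1 by 2.77 ± 0.29 and FOS by 2.09 ± 0.31 (limma adjusted p = 4.6e-05 and 0.0011). HBEGF and LRIG1 were also called lower at 48 h than at 24 h, as these 6 genes were. The LRIG1 call held in 4 of 14 alternatives. EREG, ERRFI1 and NRG1 were not called in that comparison.

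**Figure D4:**
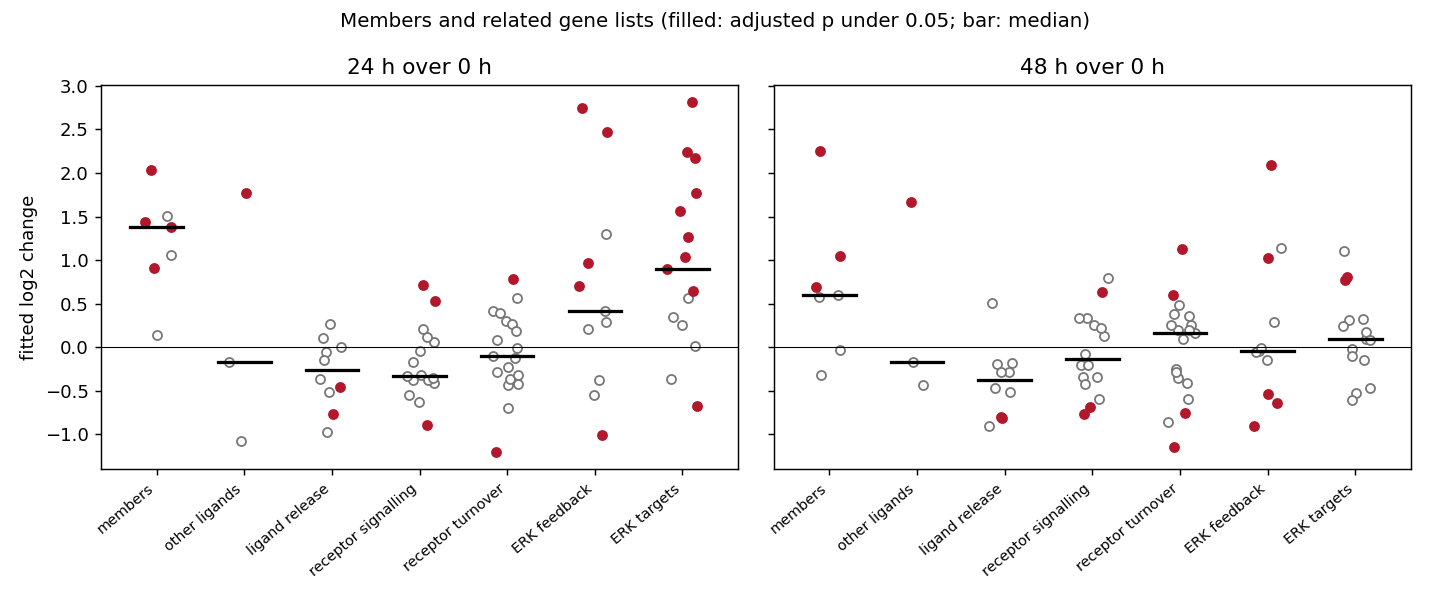
Fitted log2 change at 24 h over 0 h (left) and 48 h over 0 h (right) of the 7 tested genes (members) and the tested genes of the 6 related lists; each point is a gene, filled where the adjusted p is under 0.05, and bars are medians. The medians of the 7 genes and of the ERK targets are 1.38 and 0.90 at 24 h and 0.60 and 0.09 at 48 h. The 48 h median of the 7 genes is the value of ERBB2, which was not called.

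The genes most like each of the 6 genes whose log2 signals spanned at least 1 were looked up by Pearson's r over the 9 arrays, among 9024 genes of that span. These r values share the 9 arrays and the time course and carry no test. Closest to HBEGF were IFIT3, an interferon-induced gene (r = 0.985), and TIMM23B, of the mitochondrial import machinery (0.983). EREG was closest to GCLM, a subunit of the enzyme that starts glutathione synthesis, and ZCCHC10 (0.950 and 0.943). ERRFI1 was closest to INHBA, which encodes the activin A subunit, and PEA15, a protein that binds ERK (0.990 and 0.988). INHBA read 32.0, 192 and 113 at 0, 24 and 48 h on the full-length NRSF arrays, 45.7, 246 and 140.5 on the truncated NRSF arrays, and 44.8, 228 and 148 on the untreated arrays, the same order of times as ERRFI1.

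LRIG1 was closest to ENTPD1-AS1, an antisense RNA gene, and to ARAP2 (r = 0.953 and 0.942). TGFA was closest to CLIP4 and ANKRD49 (0.951 and 0.948) and ERBB2 to CPEB3 and SHC4 (0.944 and 0.929). TGFA and ERBB2 had an r of 0.941 with each other, and both have their lowest value on the full-length NRSF 0 h array. HBEGF had an r of 0.882 with ERRFI1, 0.785 with LRIG1 and 0.457 with EREG.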

How the data were processed

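RNA of SK-N-AS cells was measured on 9 Affymetrix arrays, 1 in each of 9 groups (3 series at 0, 24 and 48 h). The authors deposited signal intensities on a linear scale, 1 for each probe set on each array. GCOS made them, as the submitters' processing notes say, with no version or settings named in the sources used here. The mean of each array without the lowest and highest 2% of values was 150.02, and this scaling was kept. From these, a floor at the 25th percentile (8.266) was set and log2 taken. In all 54675 probe sets there are 62 controls, 41091 name 1 gene (41043 joined by Entrez ID to current symbols), 1801 name several and 11721 are not listed. Those naming 1 gene with a mean log2 signal above the 40th percentile (4.196) were tested, 26480 in all. A gene's leading probe set is the one with the highest mean signal.

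Two-sided limma tests (version 3.58.1, R 4.3.3, data.table package 1.17.8) ran lmFit and eBayes with trend, and p-values were adjusted by Benjamini-Hochberg over all 26480 and called under 0.05. One model held series and time, here the time model (4 residual degrees of freedom, 18.3 after moderation). The exposure model added a construct term at 24 and 48 h (2 and 17.4) and fits each 0 h array exactly. Nothing says the arrays are separate cultures, so p-values measure the spread between these arrays. The number of arrays limits the precision. The fits were also run on simulated data with known changes (seed 1). That noise was independent, with no floor and no shared array effect, so the run does not show how the fits do where these occur. Promoter windows are RefSeq's, GRCh38.p14. The labels give no replicate numbers; the time model blocks by series, so times are compared within a series.

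Named genes are all members; of each related list, the 3 largest absolute changes at 24 h; and for members spanning at least 1 log2, the 2 genes most correlated with each. Other list genes in the text were picked with their values in view. The members and lists were chosen with earlier results of these data known. Alternatives were other floors and filters, log2(signal + 16), quantile normalization, gene-level values, no variance trend, each series left out, and 2 single arrays left out.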

Additional observations from a re-analysis of the deposited data

Results flagged for a closer look

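Some probe sets changed in opposite directions in a pair of series, at both 24 and 48 h. The difference was tested by the limma exposure fit, and none of these 11 results passed after adjustment. In full-length NRSF cells EREG probe set 1569583_at was lower at both times than at 0 h and in truncated NRSF and untreated cells higher. The fitted difference was -3.68 ± 1.76 log2 for full-length NRSF over untreated cells (limma adjusted p = 1) and -4.19 ± 1.76 for full-length over truncated NRSF (adjusted p = 0.82). The signals of this dim probe set, 3.84 to 42.0, straddle the floor.

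TGFA probe set 211258_s_at was higher than at 0 h in both construct series and lower in untreated cells, with differences from untreated cells of 1.27 ± 1.37 for full-length and 1.01 ± 1.37 for truncated NRSF (limma adjusted p = 1 and 0.95). EGFR probe set 1565484_x_at did the same, at 2.80 ± 1.61 and 3.25 ± 1.61 (limma adjusted p = 1 and 0.79). ERBB2 probe set 216836_s_at also did, at 3.22 ± 1.20 and 0.96 ± 1.20 (limma adjusted p = 1 and 0.94). It read 6.59, below the floor, on the full-length NRSF 0 h array. In untreated cells it read 49.8 at 0 h and 49.0 at 24 h.

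EGFR probe set 210984_x_at was higher than at 0 h with full-length NRSF and lower in untreated cells (1.88 ± 0.77, limma adjusted p = 1). It read 36.8 on the full-length NRSF 0 h array, against 163.6 and 206.9 on the truncated and untreated 0 h arrays. EGFR probe set 211607_x_at was higher with full-length and lower with truncated NRSF (3.52 ± 1.17, limma adjusted p = 0.68). On the full-length NRSF 0 h array it read 9.44, against 162 and 119 on the truncated and untreated 0 h arrays. The bright EGFR probe set 224999_at was slightly lower with full-length and higher with truncated NRSF (-0.37 ± 0.31, limma adjusted p = 0.95). The 3 EGFR probe sets with x in their identifier may cross-hybridize.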

How the results depend on the processing

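The direction of every called change of a leading probe set was the same under each alternative run. HBEGF and ERRFI1 at 24 h were called in all 14 alternatives, with log2 changes of 1.18 to 2.15 and 1.34 to 1.42. Of the 7 genes, 4 were called at 24 h, 3 at 48 h and 2 between 24 and 48 h. With no filter these counts were 2, 1 and 0, with a gene's probe sets averaged 2, 1 and 0, and without a variance trend 2, 0 and 0. Between 24 and 48 h the count was 1 with the floor at the 10th percentile, with quantile normalization, without the truncated NRSF 24 h array, and without the full-length NRSF 0 h array, an alternative chosen after seeing the data. With each series left out in turn the counts were 3 to 4 at 24 h, 2 at 48 h and 1 between them. The construct comparisons gave 0 members in every alternative that could be fitted.

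Over the whole table, probe sets called at 24 h numbered 3466, against 1462 with no filter, 2260 with a single probe set per gene, 1213 with gene means, 446 without a variance trend, 1682 to 2263 with a series left out, 2078 without the truncated NRSF 24 h array and 2094 without the full-length NRSF 0 h array. At 48 h they numbered 1647, against 238 with no filter, 477 with gene means, 2 without a variance trend, 509 to 778 with a series left out and 657 without that 0 h array. Between 24 and 48 h they numbered 697, against 0 with no filter, 175 with gene means, 0 without a variance trend, 198 to 277 with a series left out and 238 without the truncated NRSF 24 h array. The cause of these differences was not tested. For the constructs, calls over the whole table were 0, 2 and 0 (full-length over untreated, truncated over untreated, full-length over truncated). With a series left out they were 14, 59 and 19, without the truncated NRSF 24 h array 14, 25 and 21, with log2(signal + 16) 1, 7 and 5, and with a single probe set per gene 1, 5 and 2. The remaining alternatives gave 0 or 1 in each. Quantile normalization moved no median of all probe sets by more than 0.1. Signals near the floor limit TGFA, ERBB2 and ERBB3.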

Other observations

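Among the mesenchymal neuroblastoma markers, 2 of 8 rose and 3 fell at 24 h in the time fit (median -0.26). Of all genes tested, 7.65% rose and 7.68% fell at 24 h, and 4.05% rose and 3.47% fell at 48 h. SNAI2, a transcription factor of mesenchymal cells, and FOSL1, an AP-1 subunit that is also in the list of ERK targets, rose by 1.26 ± 0.15 and 1.56 ± 0.20 log2 (limma adjusted p = 2.1e-05 and 4.5e-05). TGFBI, a matrix protein induced by TGF-beta, fell by 1.89 ± 0.17, fibronectin (FN1, on a probe set open to cross-hybridization) by 1.43 ± 0.16 and PRRX1 by 1.20 ± 0.15 (limma adjusted p = 1e-06, 1.4e-05 and 3.6e-05). At 48 h SNAI2 was still up and TGFBI and FN1 were still down, while PRRX1 was at -0.02 ± 0.15 (limma adjusted p = 0.95). Of the 4 fibroblast markers PDGFRA, LUM and DCN fell at 24 h, by 1.06 ± 0.14, 0.73 ± 0.15 and 0.75 ± 0.17 (limma adjusted p = 4.6e-05, 0.0032 and 0.0061). DCN, like FN1, was read by a probe set open to cross-hybridization. At 48 h PDGFRA alone of the 4 was called, at -0.66 ± 0.14 (limma adjusted p = 0.0067). These genes were chosen after their values were seen.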
